A study of Mus musculus with 15 samples.

Results

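Surfactant is the lipid and protein film that lines the alveoli of the lung, and the 10 genes described here are Sftpa1, Sftpb, Sftpc, Sftpd, Abca3, Lamp3, Napsa, Lpcat1, Slc34a2 and Etv5. They were chosen by gene symbol from the 54532 genes of the lung table, and 10 of 10 symbols were found there. RNA was sequenced from the lungs of 3 mice on a control diet (CS) and 3 mice on the same kind of diet with 2% phytosterols (PS), plant sterols that resemble cholesterol. All were male wild-type C57BL/6J mice, an inbred laboratory strain, with 1 library per mouse. The labels give an age of 28 weeks in both groups, while the feeding times in the study's methods add up to a greater age. The livers of 4 CS and 5 PS mice, 6 of these 9 mice being the ones whose lungs were sequenced, serve as background, a tissue without alveoli. The comparison asks whether the mRNA of the surfactant system differed between the diets in the lung.

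Surfactant is made by alveolar type II cells, which package its phospholipids and small hydrophobic proteins into lysosome-related organelles called lamellar bodies and secrete them into the airspace. Sftpb and Sftpc encode the hydrophobic surfactant proteins B and C, which spread and hold the lipid film, and Napsa encodes napsin A, an aspartic protease that takes part in processing their precursors. Sftpa1 and Sftpd encode surfactant proteins A and D, soluble collectins that bind microbes and take part in surfactant turnover. Abca3 moves phospholipid into the lamellar body, Lpcat1 remodels phosphatidylcholine into the disaturated form that surfactant needs, and Lamp3 is a protein of the lamellar body membrane. Slc34a2 is a sodium phosphate cotransporter of the type II cell surface that takes up phosphate from degraded surfactant. Etv5 is an ETS transcription factor downstream of FGF signalling that maintains type II cell identity.

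The total count per lung library ranged from 17934930 to 19396057 in the CS group and from 18075831 to 18241817 in the PS group. Each library was scaled by TMM normalization, which sets it by the bulk of its genes, and levels compared between libraries are given in CPM, counts relative to this scaled library size. Levels compared between genes are given in FPKM, the deposited values per kilobase of gene. Fold changes, standard errors (SE) and p-values are from edgeR's quasi-likelihood test over the 16717 lung genes that passed its filter on low counts, with Benjamini-Hochberg adjustment over all of them, and a gene is called at an adjusted p under 0.05. The lungs are whole tissue, so fewer type II cells and less RNA per type II cell cannot be told apart. All 10 genes passed the filter.

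Per kilobase of gene, Sftpc was the most abundant of the 10 in both diets and ranked 2 of all genes in the lung by mean FPKM. In the CS group it stood at 12879.6 ± 563 FPKM (SD, n = 3), followed by Sftpb at 1157 ± 15.7, Sftpa1 at 1119.8 ± 119, Sftpd at 362 ± 53.2 and Slc34a2 at 229 ± 33.9 FPKM. Lamp3 followed at 129 ± 21.5 FPKM, Napsa at 87.1 ± 2.09, Lpcat1 at 85.3 ± 13.7, Etv5 at 26.9 ± 1.45 and Abca3 at 22.3 ± 0.158 FPKM. Among neighbours in this order, the libraries of Sftpb and Sftpa1 overlapped in both diets, those of Napsa and Lpcat1 overlapped in the CS group alone, and those of Lamp3 and Napsa and of Etv5 and Abca3 overlapped in the PS group alone. All other neighbours were apart in each diet.

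The sequences before the RefSeq start sites are shown for the surfactant proteins and for the transporters of lipid and phosphate, since these sets differ in base composition. RefSeq promoters on GRCm38.p6 were found for 7 of the 10 genes, and the 250 bases before the start were read 5′ to 3′ on the gene's strand. Capitals mark CTCAAG, a core of the sites that the lung transcription factor NKX2-1 is known to bind, searched on both strands.
Sftpb (chr6:72304360-72304609, plus strand): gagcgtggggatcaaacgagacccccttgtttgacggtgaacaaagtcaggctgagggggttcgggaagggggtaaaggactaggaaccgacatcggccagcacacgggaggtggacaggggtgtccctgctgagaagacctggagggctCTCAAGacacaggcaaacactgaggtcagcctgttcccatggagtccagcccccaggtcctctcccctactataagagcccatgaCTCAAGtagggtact
Sftpa1 (chr14:41131538-41131787, plus strand): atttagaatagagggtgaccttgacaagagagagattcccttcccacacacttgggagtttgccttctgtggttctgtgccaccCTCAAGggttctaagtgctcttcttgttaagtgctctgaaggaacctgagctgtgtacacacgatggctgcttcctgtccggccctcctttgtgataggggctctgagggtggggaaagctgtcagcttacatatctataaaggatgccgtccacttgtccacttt
Abca3 (chr17:24351773-24352022, plus strand): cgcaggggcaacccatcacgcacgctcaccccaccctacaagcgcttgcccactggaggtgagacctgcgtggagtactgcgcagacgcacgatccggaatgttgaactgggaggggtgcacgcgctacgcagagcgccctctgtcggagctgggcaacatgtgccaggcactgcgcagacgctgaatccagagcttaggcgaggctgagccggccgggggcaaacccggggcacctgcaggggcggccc
Slc34a2 (chr5:53049103-53049352, plus strand): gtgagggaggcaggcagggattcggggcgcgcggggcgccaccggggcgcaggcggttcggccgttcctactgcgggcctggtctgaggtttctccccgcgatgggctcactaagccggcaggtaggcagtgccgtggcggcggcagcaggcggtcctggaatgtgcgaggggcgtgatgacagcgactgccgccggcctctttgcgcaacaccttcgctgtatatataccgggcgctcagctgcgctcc

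In the Sftpb window CTCAAG began at 100 and at 15 bases before the start, and in the Sftpa1 window at 166 bases before it. The promoters of Abca3, Slc34a2, Lpcat1, Lamp3 and Etv5 held none. CTCAAG occurred on either strand in 13.3% of the 32851 promoters of this length, and TATAA, the core of a TATA box, in 22.8%. TATAA began 30 bases before the start of both Sftpb and Sftpa1 and was in no other matched member. Only these exact letters were searched, and the Slc34a2 window holds the similar stretch TATATATA near its start site. The Sftpb and Sftpa1 windows held 58.4% and 50.0% G and C with 7 and 3 CpG sites, and the Abca3 and Slc34a2 windows held 67.6% and 69.6% with 21 and 28 CpG sites, against medians of 52.4% and 6 over all promoters. These matches describe the letters of the windows and say nothing of binding in these lungs.

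The 10 genes did not move as a block with the diet. Etv5 fell in the PS group and was the only one of the 10 called, so 1 of 10 was lower, against 4.43% of all lung genes, and 0 of 10 were higher, against 4.8% of all lung genes. Without a call, Sftpc and Napsa were higher and Abca3, Slc34a2 and Lpcat1 lower in every PS library than in any CS library. In all, the CPM of the diets did not overlap for 7 of the 10 genes. Of these 4 were lower, a pattern found in 18.8% of all lung genes, and 3 were higher, found in 17.3%. At an unadjusted p under 0.05, 6 of the 10 genes passed, against 30.1% of all lung genes. The median log2 fold change of the 10 genes was -0.17, beside 0.01 over all genes tested. With 3 mice against 3, an exact permutation test on single genes cannot go below 0.1.

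**Figure D1:**
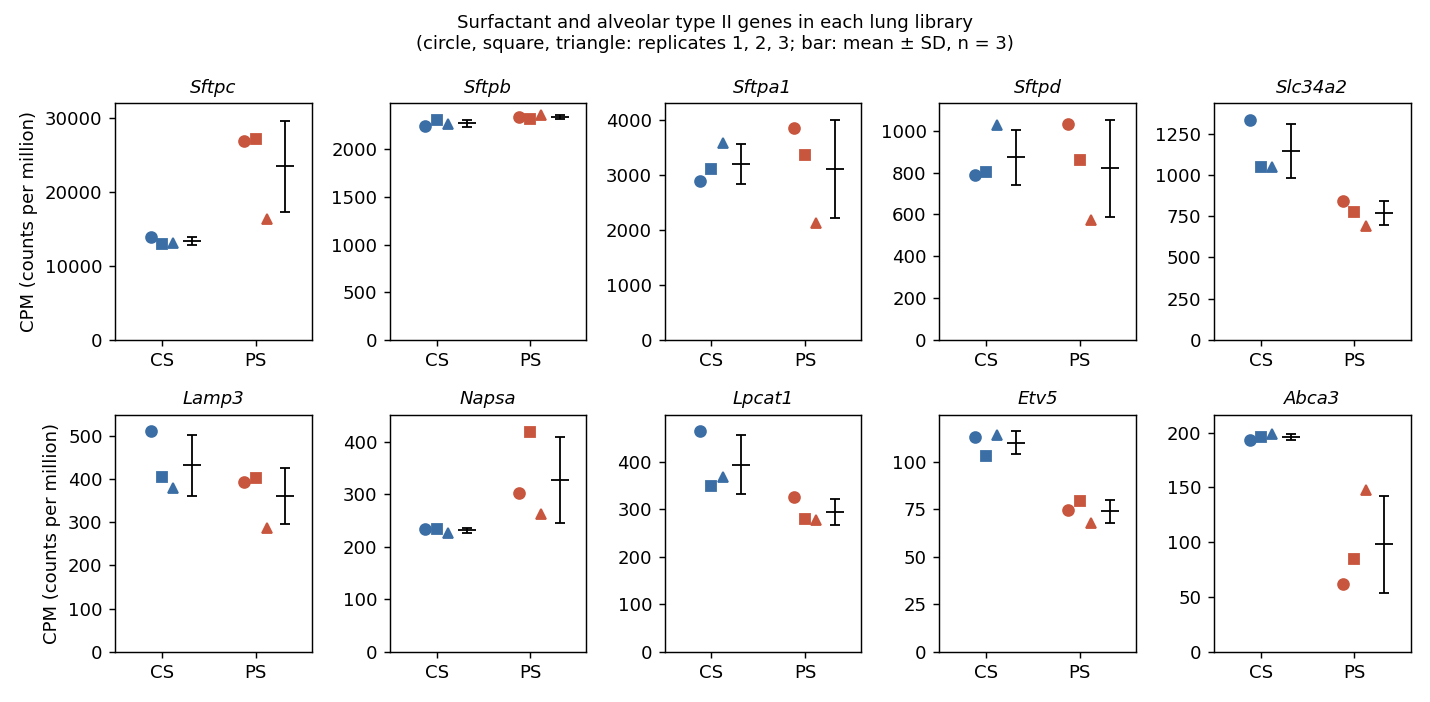
CPM of each of the 10 genes in the 6 lung libraries (y axis from 0), by diet (x axis), with CS in blue, PS in red, replicates 1, 2 and 3 as circle, square and triangle, and mean ± SD (n = 3) beside them. Sftpb is nearly level from 2241 to 2359 CPM, Etv5 is lower in the PS lungs, and PS replicate 3 is nearest to the CS lungs for Sftpc and Abca3.

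The mRNAs of the hydrophobic proteins are set side by side here, and the difference between their diet effects was not tested. Sftpc (ENSMUSG00000022097, chr14:70520949-70524081, minus strand) measured 13892, 12878 and 13088 CPM in the CS lungs and 26850.0, 27052 and 16305 CPM in PS replicates 1, 2 and 3. PS replicates 1 and 2 were far above the CS group, and PS replicate 3 was nearer to it without overlapping. The log2 fold change of Sftpc was 0.82 (SE 0.26, 95% interval 0.23 to 1.41), a 1.76-fold higher level that missed the threshold (edgeR adjusted p = 0.0764). Without PS replicate 3 the log2 fold change was 1.02 and Sftpc was called (edgeR adjusted p = 0.0208). It was 0.70 without PS replicate 1 (edgeR adjusted p = 0.111) and 0.70 without PS replicate 2 (edgeR adjusted p = 0.183), with no call. Sftpc was called in 2 of the 17 alternative fits, the one without PS replicate 3 and DESeq2's Wald test. Its log2 fold change lay between 0.70 and 1.02 in all 17. Sftpb (ENSMUSG00000056370, chr6:72304610-72314371, plus strand) was the steadiest of the 10, at 2241, 2304 and 2271 CPM in the CS lungs and 2339, 2323 and 2359 CPM in the PS lungs. The PS values all lay above the CS values, but by a log2 fold change of only 0.04 (SE 0.17, 95% interval -0.34 to 0.43, edgeR adjusted p = 0.89). The ratio of Sftpc to Sftpb, in FPKM, also looked at after the values were seen, was 11.8, 10.6 and 11 in the CS lungs and 21.8, 22.2 and 13.2 in the PS lungs.

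Napsa (ENSMUSG00000002204, chr7:44572380-44586862, plus strand) measured 233, 234 and 226 CPM in the CS lungs and 302, 419 and 262 CPM in the PS lungs. The groups did not overlap, and PS replicate 2 stood highest. Its log2 fold change of 0.50 (SE 0.19) missed the threshold (edgeR adjusted p = 0.118) and was 0.29 without PS replicate 2. The antisense gene Gm15396 shares 502 bases of the Napsa exons on the other strand and had at most 3 counts in any lung.

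The collectin genes Sftpa1 (ENSMUSG00000021789, chr14:41131782-41136452, plus strand) and Sftpd (ENSMUSG00000021795, chr14:41172214-41185149, minus strand) lie close together on chromosome 14 and showed the same order of libraries. Sftpa1 measured 2886, 3115 and 3588 CPM in the CS lungs and 3857, 3357 and 2126 CPM in the PS lungs. Sftpd measured 790.4, 802 and 1027 CPM in the CS lungs and 1032, 860.3 and 572 CPM in the PS lungs. For both genes PS replicate 1 was the highest lung and PS replicate 3 the lowest, so the diets overlapped. The log2 fold change was -0.04 (SE 0.25, edgeR adjusted p = 0.935) for Sftpa1 and -0.09 (SE 0.24, edgeR adjusted p = 0.834) for Sftpd, and both were above 0 without CS replicate 3, without PS replicate 3 and with the trend over GC content removed. Their ratio in FPKM, looked at after the values were seen, stayed between 2.95 and 3.30 in the 6 lungs, a narrower range than that of either gene.

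Among the genes of the lamellar body and its lipid, Abca3 had the largest difference. Abca3 (ENSMUSG00000024130, chr17:24351950-24410201, plus strand) measured 194, 196 and 198 CPM in the CS lungs and 62.0, 84.7 and 147 CPM in the PS lungs. The CS lungs were nearly equal, with a coefficient of variation of 1.21%, while the PS lungs spread to 45.2%. The log2 fold change of Abca3 was -0.9995 (SE 0.28, 95% interval -1.63 to -0.37, edgeR adjusted p = 0.0549), just short of a call. Abca3 was called in 7 of the 17 alternative fits, and its log2 fold change lay between -1.42 and -0.76 in all of them. Among these it was called without PS replicate 3, at -1.42 (edgeR adjusted p = 0.00785). Without a filter and with the length trend removed Abca3 joined Etv5, which made 2 of 10 members lower, against 3.78% and 4.73% of all lung genes in those fits. The gene D330041H03Rik shares 914 bases of the Abca3 exons on the other strand and had 31 to 110 counts per lung. The ratio of Sftpc to Abca3 in FPKM, a pair chosen after the values were seen because it joins the highest and the lowest fold change of the 10, was 610.3, 559 and 561 in the CS lungs and 3687, 2718 and 940.5 in the PS lungs.

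Lpcat1 (ENSMUSG00000021608, chr13:73467197-73516422, plus strand) measured 464, 348 and 369 CPM in the CS lungs and 326, 280.4 and 278 CPM in the PS lungs. Its groups did not overlap, but the log2 fold change of -0.42 (SE 0.17) missed the threshold (edgeR adjusted p = 0.136). Lamp3 (ENSMUSG00000041247, chr16:19653378-19706375, minus strand) measured 511, 406 and 379 CPM in the CS lungs and 394, 402 and 287 CPM in the PS lungs. The groups overlapped, with CS replicate 1 highest and PS replicate 3 lowest, and the log2 fold change was -0.26 (SE 0.20, edgeR adjusted p = 0.398). Lamp3 shares stretches of 377 to 556 bases at 95% identity or more with Ppid and 4 predicted genes, so a part of its counts is uncertain. Slc34a2 (ENSMUSG00000029188, chr5:53038081-53071664, plus strand) measured 1334, 1049 and 1048 CPM in the CS lungs and 842, 776 and 691 CPM in the PS lungs. Every PS lung was below every CS lung, and the log2 fold change of -0.57 (SE 0.18) missed the threshold (edgeR adjusted p = 0.0756).

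Etv5 (ENSMUSG00000013089, chr16:22381309-22439719, minus strand) measured 113, 103 and 114 CPM in the CS lungs and 74.5, 79.4 and 67.8 CPM in the PS lungs. The PS lungs lay close together and well below the CS lungs, with a mean of 73.9 ± 5.86 CPM (SD, n = 3) against 110.2 ± 6.07 CPM (SD, n = 3). Etv5 fell by 0.58 on the log2 scale (SE 0.13, 95% interval -0.88 to -0.28, edgeR adjusted p = 0.0369), a level 1.49-fold lower in the PS group. The direction held when each lung was left out, with log2 fold changes from -0.64 to -0.51. The call was lost without CS replicate 1 (edgeR adjusted p = 0.123), CS replicate 2 (0.113), CS replicate 3 (0.143) or PS replicate 2 (0.0954), and held without PS replicate 1 or PS replicate 3. It was also lost with the GC trend removed (edgeR adjusted p = 0.0501), with a replicate block (0.0522), with both together (0.0708) and in 1 fit over all 15 libraries of both tissues (0.389), so that of 17 alternative fits 8 lost the call and 9 kept it. The predicted gene Gm4798 matches 1700 bases of Etv5 at 98.6% identity and had at most 5 counts in any lung. This low count does not settle how shared reads were counted, so a part of the Etv5 counts is uncertain, as for Lamp3.

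**Figure D2:**
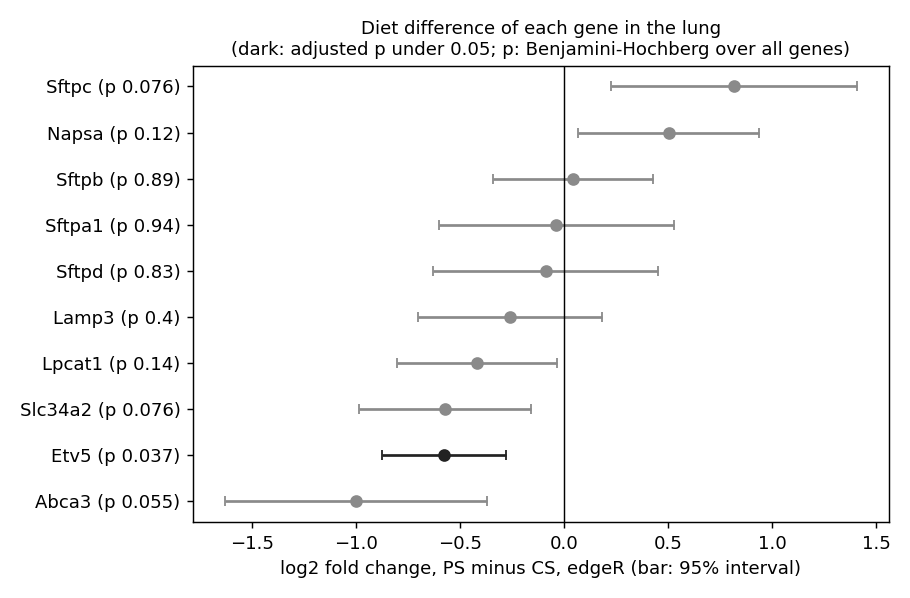
Log2 fold change, PS minus CS (x axis), of each of the 10 genes (y axis, with its adjusted p over all genes) with its 95% interval from edgeR in the 6 lungs. Etv5, drawn dark, is the only gene past the threshold, and the intervals of Sftpc, Napsa, Lpcat1, Slc34a2 and Abca3 also leave out 0 before adjustment.

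By DESeq2's Wald test, run on these counts, 3 of the 10 genes were called lower, against 8.61% of all lung genes, and 1 of 10 was called higher, against 8.99% of all lung genes. The log2 fold changes it gave were -1.01 for Abca3 (DESeq2 adjusted p = 0.00323), -0.58 for Slc34a2 (DESeq2 adjusted p = 0.0124) and 0.81 for Sftpc (DESeq2 adjusted p = 0.00355), with Etv5 as the remaining call (DESeq2 adjusted p = 0.00542). The tools thus gave nearly the same fold changes and differed in the calls.

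PS replicate 3 stood apart from the other PS lungs in these genes. It had the lowest level of the 6 lungs for Sftpa1, Sftpd, Lamp3, Lpcat1, Slc34a2 and Etv5, and the level nearest to the CS group for Sftpc, Napsa and Abca3. Without PS replicate 3, edgeR called Abca3 and Etv5 lower, 2 of 10 against 7.67% of all lung genes, and Sftpc higher, 1 of 10 against 5.55% of all lung genes. The 10 genes together held 3.92%, 3.75% and 3.40% of all FPKM in the CS lungs and 5.22%, 6.26% and 4.15% in the PS lungs. Sftpc made up 79.0% to 81.1% of this sum in the CS lungs and 85.9% to 89.0% in the PS lungs. Without Sftpc, the other genes summed to 3152, 3144 and 3358 FPKM in the CS lungs and 3505, 3276 and 2566 FPKM in the PS lungs, which overlapped.

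**Figure D3:**
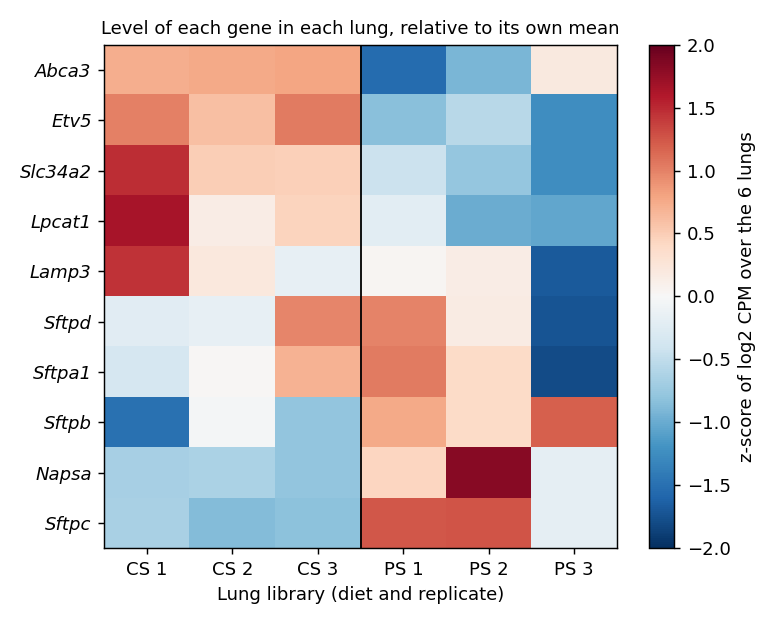
Log2 CPM of each of the 10 genes (rows, from lowest to highest fold change) in each lung library (columns), as a z-score over the 6 lungs, red above and blue below the gene's own mean. The genes at the top and bottom separate the diets in opposite directions, and PS replicate 3 is the lowest lung for Sftpa1, Sftpd and Lamp3.

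**Figure D4:**
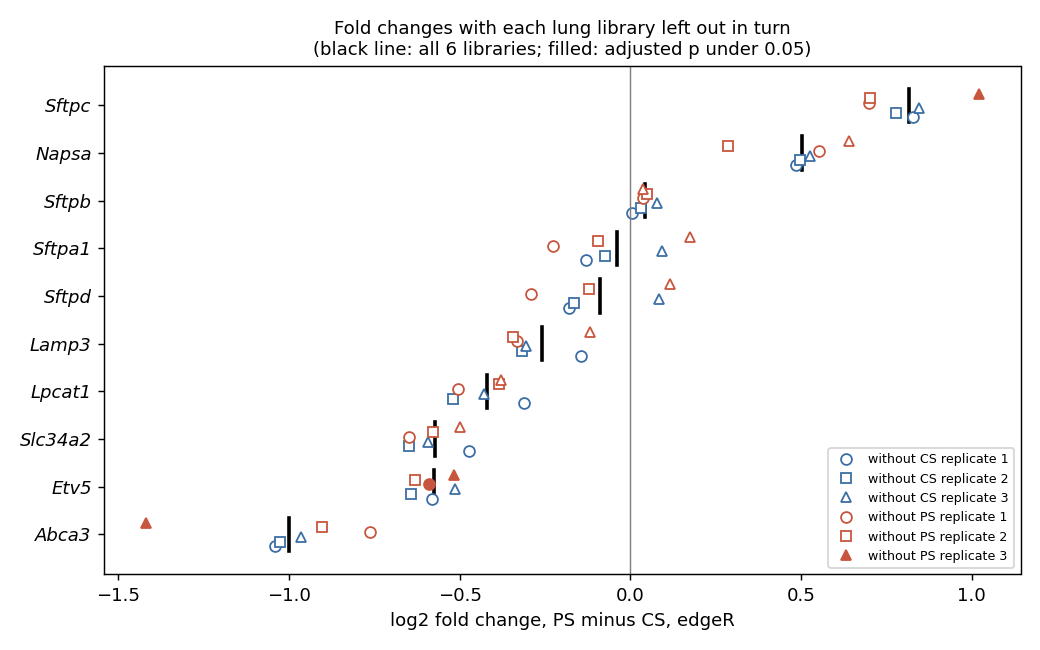
Log2 fold change, PS minus CS (x axis), of each gene (y axis) with all 6 lungs (black line) and with each lung left out (blue for a CS lung, red for a PS lung, symbols for replicates 1, 2 and 3, filled where the adjusted p is under 0.05). Leaving out PS replicate 3 moves Sftpc to 1.02 and Abca3 to -1.42, while Etv5 stays between -0.64 and -0.51.

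Over all lung genes, fold changes varied with gene length and GC content. With the genes in 5 equal bins, the median log2 fold change was 0.16 in the bin of the shortest genes and -0.11 in that of the longest, and it was -0.11 in the bin of the lowest GC content and 0.21 in that of the highest. Among the 10 genes Sftpc was the shortest, with 1034 bases, and Abca3 the longest, with 8797 bases, and both held 54.8% G and C. With each library's trend over length removed, the log2 fold change was 0.70 for Sftpc and -0.91 for Abca3, which was then called (edgeR adjusted p = 0.0471). With the trend over GC content removed it was -1.09 for Abca3, again called (edgeR adjusted p = 0.0356), -0.54 for Etv5 and -0.14 for Sftpb. The part of these trends in the members' differences was not tested beyond these fits.

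Other genes of the type II cell were examined in lists of known markers and pathways. Over all lung genes 4.43% were called lower and 4.8% higher, shares that serve for each list below. Of 28 tested type II markers outside the 10, 2 were called lower and 0 higher. Their median log2 fold change was -0.09, and their summed level overlapped between the diets, from 11736 to 13865 CPM in the CS lungs and from 9233 to 12915 CPM in the PS lungs. At an unadjusted p under 0.05 in edgeR's test 5 of the 28 were lower and 3 higher, where 14.5% and 15.6% of all lung genes were lower and higher. Cpm, a carboxypeptidase of the cell surface, fell from 116 ± 15 to 67.4 ± 2.11 CPM (SD, n = 3 each, log2 fold change -0.79, edgeR adjusted p = 0.0238). Egfl6, a secreted protein with EGF-like repeats, fell from 48.5 ± 3.98 to 31.0 ± 1.15 CPM (SD, n = 3 each, log2 fold change -0.65, edgeR adjusted p = 0.0327). With the GC trend removed Egfl6 was at -0.53 and lost its call (edgeR adjusted p = 0.0528), while Cpm kept its own (0.0304).

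Surfactant lipid genes moved in both directions. Of 32 tested genes of phosphatidylcholine and surfactant lipid synthesis, transport and recycling, 4 were called lower and 4 higher. The shares over all lung genes were 4.43% and 4.8%, and the list's median was -0.03 (log2). Gpam, which starts glycerolipid synthesis in mitochondria, fell from 41.7 ± 3.04 to 8.16 ± 4.32 CPM (SD, n = 3 each, log2 fold change -2.35, edgeR adjusted p = 0.0163). Pcyt1a, the rate-limiting enzyme of phosphatidylcholine synthesis, fell from 82.6 ± 4.04 to 32.1 ± 8.15 CPM (SD, n = 3 each, log2 fold change -1.36, edgeR adjusted p = 0.0163). Chka, the choline kinase one step before it, rose from 75.1 ± 3.39 to 168 ± 22.4 CPM (SD, n = 3 each, log2 fold change 1.16, edgeR adjusted p = 0.0132). The other calls were Acly and Slc7a2, lower, and Dgat1, Pla2g6 and Chkb, higher, with Chkb at low counts (mean log2 CPM 0.98). The summed level of this list ran from 6675 to 7281 CPM in the CS lungs and from 5655 to 6606 CPM in the PS lungs.

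Of 26 tested genes for processing, trafficking and secretion, 1 was called lower and 1 higher, and the list's median was -0.19 (log2). Rab38, a small GTPase of lysosome-related organelles, fell from 8.86 ± 0.289 to 3.95 ± 1.04 CPM (SD, n = 3 each, edgeR adjusted p = 0.0347). Of 32 tested transcription factors and co-factors of surfactant genes, 2 were called lower and 0 higher, with a median of -0.10. These were Ctnnb1, the β-catenin of Wnt signalling, at a log2 fold change of -1.04 (edgeR adjusted p = 0.0288), and Rarb, a retinoic acid receptor at low counts, at -2.81 (edgeR adjusted p = 0.0406) and at -4.05 without PS replicate 3. Nkx2-1, the factor named with the promoters, had a log2 fold change of 0.54 and was not called (edgeR adjusted p = 0.0692).

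Around Etv5, 27 genes of FGF signalling were tested and 4 were called lower and 0 higher, against 4.43% and 4.8% of all lung genes. The list's median was -0.09 (log2). Dusp4, a phosphatase of feedback control, fell from 9.11 ± 0.519 to 1.93 ± 1.82 CPM (SD, n = 3 each, log2 fold change -2.23, edgeR adjusted p = 0.0417), and its log2 fold change was -3.35 without PS replicate 3 and -1.86 without PS replicate 1. The call of Dusp4 was lost without the filter on low counts (edgeR adjusted p = 0.0507). Ccnd1, cyclin D1, fell from 145 ± 18.3 to 47.7 ± 21.3 CPM (SD, n = 3 each, log2 fold change -1.60, edgeR adjusted p = 0.0218). Il17rd, a feedback inhibitor of FGF signalling, fell from 50.5 ± 2.42 to 30.03 ± 4.32 CPM (SD, n = 3 each, log2 fold change -0.75, edgeR adjusted p = 0.0311). The feedback genes Spry2 and Dusp6 had log2 fold changes of 0.01 and 0.06 and were not called (edgeR adjusted p = 0.982 and 0.835).

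Of 20 tested genes for uptake and breakdown of surfactant by alveolar macrophages, 0 were called lower and 1 higher, with a median of 0.11. Csf2ra, the alpha chain of the receptor for GM-CSF, which alveolar macrophages need to clear surfactant, rose from 23.5 ± 2.14 to 74.3 ± 33.6 CPM (SD, n = 3 each, log2 fold change 1.66, edgeR adjusted p = 0.0271). Of the 20 genes 7 had a log2 fold change below 0 and 13 above. The summed level of the list was lower in every PS lung, from 2682 to 3256 CPM against 3584 to 3875 CPM in the CS lungs, and its most abundant genes, the lipid receptor Cd36 and the sterol carrier Npc2, had log2 fold changes of -0.73 and -0.67 without being called (edgeR adjusted p = 0.0758 and 0.0801).

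Markers of the other cells of the lung were counted in the same way. Of 20 tested alveolar type I markers, 1 was called lower, Sec14l3, which fell from 1483 ± 164 to 467 ± 185 CPM (SD, n = 3 each, edgeR adjusted p = 0.0208), and the list's median was -0.01. Of 18 general epithelial genes, 3 were called lower, Sox4 and Grhl2 among them, with a median of -0.18. At an unadjusted p under 0.05 in edgeR's test 5 of the 18 were lower and 0 higher. Grhl2 lost its call with the GC trend removed (edgeR adjusted p = 0.0520) or the length trend removed (0.0666). Sox4 kept its own in both fits. Of 17 club cell markers 0 were called in either direction, and the median was -0.55. At an unadjusted p under 0.05 in edgeR's test 14.5% of all lung genes were lower and 15.6% higher. Of the 17 markers 2 were lower and 0 higher at that threshold. All 17 had a log2 fold change below 0, that of Scgb1a1, the most abundant, being -0.02. Scgb1a1 was at 49125 ± 13144 CPM in the CS lungs and 48397 ± 14578 CPM in the PS lungs (SD, n = 3 each). Of 17 ciliated cell markers 1, Lrriq1, was called lower, and the median was -0.36. Of 16 markers of transitional alveolar cells after injury 0 were called, 1 was lower and 2 higher at an unadjusted p under 0.05, and the median was 0.19.

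Of 19 alveolar macrophage markers Plet1 was called lower and Trim29 higher. Both calls were lost with the GC trend removed (edgeR adjusted p = 0.0554 for Plet1 and 0.0508 for Trim29). Of the 19, 13 had a log2 fold change above 0 and 6 below, with a median of 0.36. At an unadjusted p under 0.05 in edgeR's test 15.6% of all lung genes were higher and 14.5% lower. Of the 19 markers 5 were higher and 1 lower at that threshold. Their summed level ran from 619 to 704 CPM in the CS lungs and from 521 to 951 CPM in the PS lungs. Of 17 endothelial markers Kdr was called lower and Ramp2 higher, with summed levels of 7010.3 to 8241 CPM and 7559 to 9151 CPM in the CS and PS lungs. Of 14 myeloid markers Csf3r was called higher. None of 15 lymphoid or 16 mesenchymal markers was called by edgeR, with 3 lymphoid markers lower and 2 higher and 0 mesenchymal markers lower and 3 higher at an unadjusted p under 0.05. The summed lymphoid level, most of it Jchain of plasma cells, was higher in every PS lung, at 1454 to 1900.0 CPM against 794 to 1345 CPM. Alas2 was called lower among 6 red cell genes. Of 9 fat cell genes Lipe was called higher, while the other 8 had log2 fold changes below 0 and were not called, and the list's median was -1.0047. At the adjusted threshold 0 of 10 heart muscle genes and 0 of 10 immediate early genes were called, with 2 heart genes and 0 immediate early genes lower and 0 of either higher at an unadjusted p under 0.05. The heart muscle sum was 225 to 343 CPM in the CS lungs and 47.4 to 623 CPM in the PS lungs. No gene of these lists was at 0 in every lung. The part of other cell types in the members' differences was not tested.

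The edgeR calls in the lung depended on single libraries. Without CS replicate 3, 0 of 17190 genes were called by edgeR, while 1640 were lower and 2250 higher at an unadjusted p under 0.05. Over all lung genes, 23 calls were made without CS replicate 1, 26 without CS replicate 2 and 9 without PS replicate 2, against 2949 without PS replicate 1 and 2256 without PS replicate 3. Of the 25 called genes that the naming rule picked from the lists, 1 kept its call without CS replicate 2 and 0 without CS replicate 1, CS replicate 3 or PS replicate 2, while 23 kept it without PS replicate 1 and 24 without PS replicate 3. Other fits also lost some of these calls. With DESeq2 25 were kept, with the GC trend removed 21, and with a replicate block as well 17. In 1 fit over all 15 libraries 0 were kept.

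In the liver, levels of these genes were low. The highest liver library was below the lowest lung library in FPKM for 10 of 10 genes, as it was for 58% of the 17696 genes that passed the filter over all libraries. Sftpb had 0 to 2 counts per liver, Lamp3 0 to 8 and Sftpc 0 to 11, and these 3 genes did not pass the filter. Abca3 was the most abundant in the liver, with a lowest, median and highest count of 119, 213 and 657 and a median of 1.62 FPKM, against 19.4 FPKM over the lungs. The other 6 genes had between 2 and 76 counts per liver.

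Of the 7 members tested in the liver 0 were called by edgeR, against 0.00758% of all liver genes. At an unadjusted p under 0.05 in edgeR's test 2 of the 7 passed, against 7.55% of all liver genes, and DESeq2 called 0 of the 7, against 0.903%. Lpcat1 was at 2.41 ± 0.495 CPM (SD, n = 4) in the CS livers and 1.25 ± 0.254 CPM (SD, n = 5) in the PS livers, and the diets did not overlap. Its log2 fold change was -0.94 (SE 0.31, edgeR adjusted p = 0.444). Slc34a2 had a log2 fold change of -1.64 (SE 0.67, edgeR adjusted p = 0.597) on 2 to 76 counts per liver. The difference between the diet effects of lung and liver was called for 0 of these 7 genes, against 0.0226% of all genes tested, and 0 passed an unadjusted p under 0.05 in edgeR's test, against 10.9%. For Etv5 the effect in the lung was lower than in the liver by 0.36 on the log2 scale (SE 0.42, edgeR adjusted p = 0.768), so the fall of Etv5 was not shown to differ between the tissues. This fit did not use the fact that 6 mice gave both tissues, and with mouse as a block over those mice the difference for Etv5 turned to 0.18 on the log2 scale and was not called either.

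**Figure D5:**
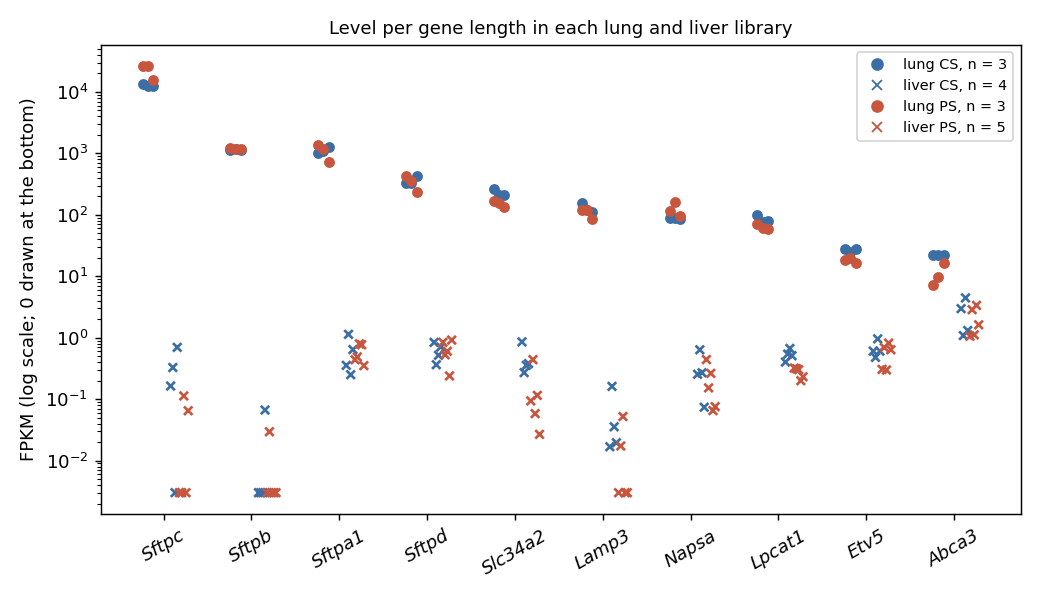
FPKM on a log axis (y axis, with 0 drawn at the bottom) of each gene (x axis) in every lung (circles) and liver (crosses) library, CS in blue and PS in red. Every gene is higher in each lung than in any liver, and Abca3 is the closest between the tissues.

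The mean z-score of the 10 genes over the 6 lungs separated PS replicate 3, at -0.77, from the other lungs, which lay between 0.05 and 0.29. The genes outside all lists whose log2 CPM was most like it, by Pearson's r over these 6 libraries, were Mrpl16 (r = 0.996), C1galt1 (0.995), Kcne2 (0.990), Igkv12-44 (0.987) and Sgpp2 (0.979). This is a description, since members with opposite differences cancel in the mean and all 6 points share the libraries with it. The named genes are the highest of many ranked on 6 points. PS replicate 3 alone lies far from the other lungs in this mean, so r rests largely on that library.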

How the data were processed

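Lung and liver poly-A RNA was sequenced as read pairs, 1 library per mouse and tissue. Per the labels' processing notes the authors used HISAT2 2.0.5 on mm10, featureCounts 1.5.0-p3 and DESeq2 1.20.0. The strand setting of the counting is not given in the sources used here, so genes overlapping on the other strand are uncertain. The deposited counts are whole reads per gene, without normalization. The deposited FPKM values were made by the authors from these counts, gene length and a factor for each library. Samples were grouped by their titles and diet labels. No value column was left without a sample.

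Genes were compared with edgeR 4.0.16 (R 4.3.3), by the quasi-likelihood test with robust estimates, TMM scaling and the default filter on low counts, in the lungs alone, the livers alone and, for the difference between tissues, over all 15 libraries. Adjusted p-values are by Benjamini-Hochberg over all genes tested. The members and gene lists were chosen with earlier results of these data known. Beyond the members, up to 3 called genes with the largest fold change at a mean log2 CPM of at least 1 were named per list (2 in lists of non-epithelial cells), or, where none was called, the most abundant. Other named genes (the remaining calls of the lipid list, Nkx2-1, Spry2, Dusp6, Cd36 and Npc2) were picked after their values were seen. A few called genes of the lists are not reported here by name, but count in the totals.

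The comparison was also run with DESeq2 1.42.0, with its size factors in edgeR, without the filter, with a minimum of 10 counts in each library, by limma-trend (limma 3.58.1) on log2(FPKM + 1) and log2(FPKM + 0.1), with length or GC trends removed (loess, span 0.3), with a replicate block, over all 15 libraries and leaving out each library. The fits were tested on simulated data with 200 changed genes per tissue. The lung fit called 105 of these and 11 unchanged genes, and the liver fit 74 and 7. A gene without a call is thus not shown to be unchanged. No pair of libraries within a tissue was as close as a repeated deposit would be. Total counts set the depth, and the FPKM values keep no depth of their own. Gene lengths are those in the files, and GC content and overlaps are from GENCODE M21 on GRCm38.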

Additional observations from a re-analysis of the deposited data

Results flagged for a closer look

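In the livers, 2 values of the 10 genes stood far from the rest of their group. Lamp3 was at 0.539 CPM (8 counts) in CS replicate 2, where the other CS livers lay between 0.0552 and 0.116 CPM. Slc34a2 was at 2.16 CPM (38 counts) in PS replicate 2, where the other PS livers lay between 0.133 and 0.562 CPM. Sftpb met the same criterion at 0.128 CPM (2 counts) in CS replicate 4 and at 0.0568 CPM (1 count) in PS replicate 2, but with 0 in the other livers of each group any single count would meet it, so nothing is read from these values. With 20 groups checked, chance flags about 1 group in 20. The lung groups, with 3 libraries each, were too small for this check.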

How the results depend on the processing

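The count of members called lower was 3 with DESeq2, 2 without a filter (of 1086 lower genes in all), 2 with the length trend removed (of 791) and 0 in the fit over all 15 libraries, and 0 to 2 when each lung was left out, while members called higher numbered 1 with DESeq2 and 0 to 1 on leaving out a lung. Over all lung genes, lower and higher calls were 1464 and 1527 with DESeq2, 1 and 0 in the fit over all 15 libraries, and 0 to 1309 and 0 to 1752 on leaving out a lung. Genes called higher were 1220 without a filter, 495 with log2(FPKM + 1) and 528 with log2(FPKM + 0.1). Of 170 member fold changes in the lung under the alternatives, 143 kept direction and side of the threshold, 8 lost the call, 10 gained one and 9 changed sign. The sign changes were of genes near 0. Sftpa1 was at 0.0778 with the GC trend removed, 0.0453 with the GC trend removed and the replicate block, and -0.23 to 0.17 on leaving out a lung. Sftpb was at -0.14 with the GC trend removed, with and without the replicate block. Sftpd was at 0.00779 with the GC trend removed and -0.29 to 0.12 on leaving out a lung. The cause was not tested. Replicate numbers did not pair the lungs (correlations of same-numbered deviations -0.00648 to 0.0988), and the replicate block gave 806 lower and 817 higher genes, with Abca3 called (edgeR adjusted p = 0.0319) and Etv5, at -0.58, not (0.0522). With the GC trend removed as well, Etv5 was at -0.55 (0.0708). In the liver, leaving out a library gave Abca3 at -0.56 to 0.16, Sftpa1 at -0.31 to 0.47 and Sftpd at -0.14 to 0.25, and with mice as the replicate block the lung minus liver effect of Etv5 was 0.18.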
